A study of Canis lupus familiaris with 6 samples.

Results

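The cytosolic ribosomal proteins were followed in canine keratinocytes 24 h after treatment with cold atmospheric microwave plasma. Members were chosen by name: protein-coding genes whose symbol is RPL or RPS with a number and at most 1 letter, together with RPSA, RPLP0, RPLP1, RPLP2 and FAU, which gave 85 of the 35993 genes in the table. They stand for 82 symbols, since RPL31, RPL34 and RPL37 each occur with 2 gene identifiers. Of the members, 32 code for proteins of the small (40S) subunit and 53 for proteins of the large (60S) subunit, and 6 are paralogs (RPL3L, RPL7L1, RPL10L, RPL22L1, RPL26L1 and RPS27L). RACK1 and protein S12, which is listed as LOC476206, belong to the ribosome but fall outside the naming rule.

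RNA-Seq was performed on CPEK cells, a line of canine epidermal keratinocytes of wild-type genotype, grown in DMEM with 10% FBS, penicillin and streptomycin. Cells were treated directly with plasma (dCAMP, 3 libraries) or with the gas alone (gas control, 3 libraries) for 30 s, the medium of both groups was renewed 15 min later, and RNA was collected after a further 24 h for stranded mRNA libraries. CPEK is a single line without the layers or other cells of skin. The labels do not say whether the 3 libraries of a group came from separate cultures, so the p-values measure the spread between these libraries, which may be technical.

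A ribosome reads messenger RNA on its small subunit and joins amino acids on its large subunit. Each subunit is a fixed assembly of ribosomal RNA and proteins, most of them present in a single copy, so the messages of these proteins are abundant, short and held at related levels. Most of them begin with a 5′ terminal oligopyrimidine (TOP) tract, through which growth signals such as mTOR control their translation, and in the epidermis ribosome production accompanies the growth of basal keratinocytes.

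The libraries held 43084921 to 54082634 counts assigned to genes. The keratinocyte line matched its label: all 16 keratinocyte markers were measured, with KRT5 at 21828 to 28157 CPM, the count scaled to the normalized library size, while PDGFRB, DCN, LUM, TYR, TYRP1, DCT, PECAM1, PTPRC, CD3E and CSF1R were at 0 in every library. The summed level of the keratinocyte markers was 59650 to 71277 CPM for gas and 56784 to 60220 CPM for dCAMP. At an unadjusted p under 0.05 in edgeR, 3 of them were lower in dCAMP (18.8%, beside 13.9% of all genes tested). Another 3 were higher, beside 6.81% of all genes tested. Fibroblast markers summed to 6.39 to 6.93 CPM in gas and 6.23 to 6.99 in dCAMP, melanocyte markers to 7.12 to 9.12 and 8.86 to 11.4, endothelial markers to 15.6 to 18.4 and 18.8 to 24.7, and leukocyte markers to 1.97 to 3.1 and 1.61 to 2.72. The gas libraries differed among themselves more than the dCAMP libraries did: 9 messages of the mitochondrial genome summed to 4662 CPM in gas 1, 13237 CPM in gas 2 and 22145 CPM in gas 3, against 20228 to 20736 CPM after dCAMP. The part of this spread in the results that follow was not tested.

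Ribosomal protein messages took a larger share of the gas libraries than of the dCAMP libraries. Of all gene counts they took up 7.55% in gas 1, 7.09% in gas 2 and 6.14% in gas 3, whereas dCAMP 1, 2 and 3 gave them 5.79%, 5.85% and 5.76%. The groups did not overlap, with 6.93% ± 0.72 (SD, n = 3) in gas and 5.8% ± 0.05 (SD, n = 3) in dCAMP, and gas 3 lay closer to the dCAMP libraries than to gas 1. Measured per length, as a share of the deposited TPM, the members held 18.39%, 17.38% and 15.52% of the gas libraries and 14.86%, 14.93% and 14.82% of the dCAMP libraries, in the same order. In bulk RNA, fewer cells of a kind and less message per cell cannot be told apart.

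Both subunits showed the difference. The 40S members took up 3.23%, 3.0% and 2.59% of gas 1, 2 and 3, and 2.44% to 2.49% of the dCAMP counts. The 60S members held 4.32%, 4.09% and 3.55% in gas and 3.32% to 3.36% in dCAMP. The ratio of 60S to 40S counts lay between 1.337 and 1.37 in all 6 libraries, with gas 1 lowest and gas 3 highest, so the dCAMP libraries, at 1.348 to 1.366, fell inside the range of the gas libraries.

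**Figure D1:**
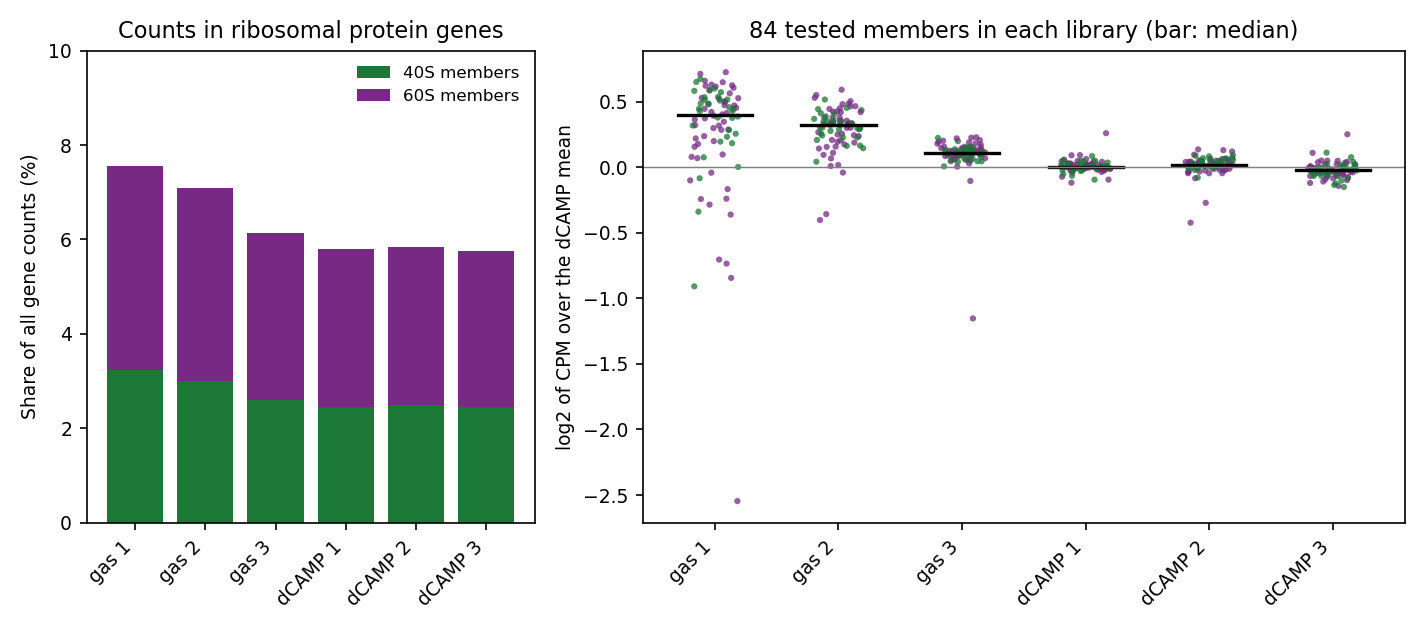
Left: stacked bars give the share of all gene counts (%) in the 40S and 60S members for each library. Right: each point is 1 of the 84 tested members, as the log2 of its CPM over the mean of the dCAMP libraries (0.01 added to both), with a bar at the median; the gas medians step down from 0.40 to 0.32 and 0.11, and the points of gas 1 spread the most.

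Of the 85 members, 84 passed the filter on low counts and were tested among 14708 genes with edgeR's quasi-likelihood test. Of these, 74 had a lower estimate in dCAMP-treated cells, beside 47.6% of all genes, and 10 a higher one, and the median log2 fold change was -0.28, beside 0.03 over all genes tested. With Benjamini-Hochberg adjustment over all genes, 0 members had an adjusted p under 0.05 in edgeR (background 0.0% of genes in either direction), and the smallest was 0.221. At an unadjusted p under 0.05, 53 members (63.1%) were lower in dCAMP, beside 13.9% of all genes tested, and 0 were higher, beside 6.81%. In 62 members every dCAMP library lay below every gas library, beside 20.9% of all genes, and in 0 members did every dCAMP library lie above, beside 19.0%. DESeq2 put 53 members lower at an unadjusted p under 0.05 (background 10.6%), with 0 past the adjusted threshold (background 1.13%) and a smallest adjusted p of 0.0578. The threshold in the study's methods, a 2-fold change at that p, was applied there to DESeq2. In the edgeR fit used here it was reached by 0 members, beside 1.09% of all genes tested.

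The differences were small, and 74 of the 84 estimates were negative. Estimates ran from -0.52 to 0.59 on the log2 scale, with an SD of 0.19 over the 84 members and 0.45 over all genes tested. These SDs do not compare genes of like level: 8601 genes outside the list, but only 2 members, were under 10 FPKM. The median was -0.28 for the 32 tested 40S members. Of these, 20 (62.5%) were lower in dCAMP at an unadjusted p under 0.05 in edgeR, beside 13.9% of all genes. In 25 (78.1%) every dCAMP library lay below every gas library, beside 20.9% of all genes. The median was -0.27 for the 52 tested 60S members, with 33 (63.5%) and 37 (71.2%) in the same way. The plot of fold changes by subunit shows that the open points, those that missed the unadjusted threshold, sit mostly at the small end of the decrease.

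**Figure D2:**
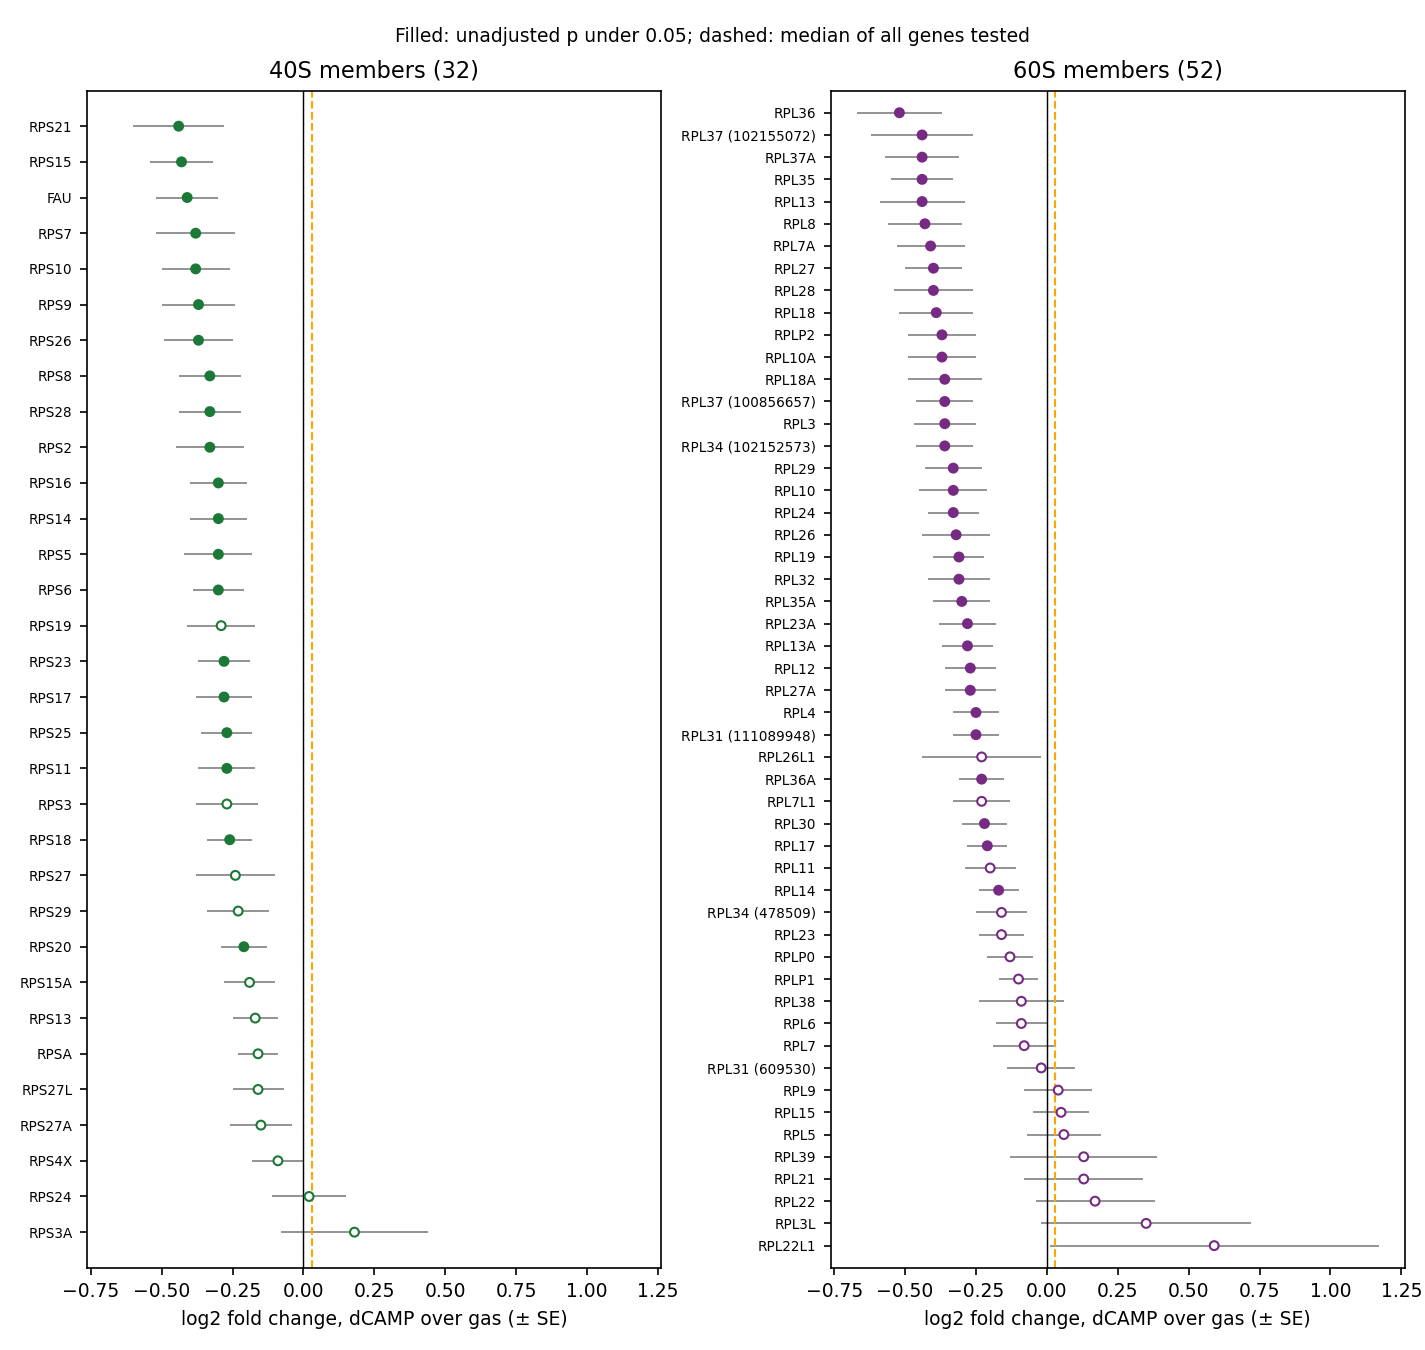
log2 fold change of dCAMP over gas (edgeR, ± SE) for the 32 tested 40S members (left) and the 52 tested 60S members (right); filled points have an unadjusted p under 0.05 and the dashed line is the median of all genes tested, 0.03. The filled points all lie to its left, and RPS3A, RPL22, RPL3L and RPL22L1 lie furthest to its right, with wide errors.

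Among the 40S members, RPS2, which sits at the entry of the mRNA channel, was the highest member per length (mean 2996 FPKM). Its levels were 4112, 3610 and 2990 CPM in gas libraries 1 to 3 and 2817, 2867 and 2825 CPM in dCAMP libraries 1 to 3. The groups did not overlap, but gas 3 lay closer to the dCAMP libraries than to gas 2. The log2 fold change was -0.33 (SE 0.12, edgeR adjusted p = 0.226). The gene lies on chromosome 6 from 38966830 to 38968743 (CanFam3.1, as are all positions here), with introns, and its locus overlaps that of NDUFB10. RPS20, of the 40S head, was the next highest (2030 FPKM), at 1425, 1446 and 1282 CPM in gas and 1152, 1252 and 1179 CPM in dCAMP. Its groups did not overlap, and its log2 fold change was -0.21 (SE 0.08, edgeR adjusted p = 0.229).

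RPS15, a protein of the 40S head near the decoding site, measured 465, 423 and 361 CPM in the gas libraries and 303, 307 and 318 CPM in the dCAMP libraries. Every dCAMP library was lower, and the log2 fold change was -0.43 (SE 0.11, edgeR adjusted p = 0.221). RPS21, needed to mature the 40S subunit, had the lowest 40S estimate, -0.44 (SE 0.16, edgeR adjusted p = 0.226). Its levels were 327, 293 and 215 CPM in gas and 205, 194 and 216 CPM in dCAMP, so gas 3 fell among the dCAMP libraries. The fold change of RPS21 was -0.64 without gas 3 and -0.33 without gas 1.

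RPS6, on chromosome 11 from 39161422 to 39165148, is the 40S protein that S6 kinase phosphorylates when growth signals are active. It stood at 1926, 1807 and 1557 CPM in gas and 1415, 1433 and 1448 CPM in dCAMP, without overlap. Its mean was 1764 ± 189 CPM (SD, n = 3) in gas and 1432 ± 16.6 CPM (SD, n = 3) in dCAMP, a log2 fold change of -0.30 (SE 0.09, edgeR adjusted p = 0.221). RPSA, which also serves as a laminin receptor at the cell surface, had 1399, 1423 and 1319 CPM in gas and 1227, 1288 and 1183 CPM in dCAMP. Those groups did not overlap either, though the gap from gas 3 to the nearest dCAMP library was smaller than the range of either group, and the log2 fold change was -0.16 (SE 0.07, edgeR adjusted p = 0.246).

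A pair of 40S members are made as fusions with a ubiquitin-type domain that is cut off afterwards. FAU, which yields protein S30, lies on chromosome 18 from 52072705 to 52074337. It measured 600, 542 and 460 CPM in gas and 407, 407 and 389 CPM in dCAMP, with no overlap and a log2 fold change of -0.41 (SE 0.11, edgeR adjusted p = 0.221). RPS27A, which yields ubiquitin itself and protein S27a, measured 660, 809 and 731 CPM in gas and 699, 679 and 600 CPM in dCAMP. Here gas 1 was the lowest gas library and fell between the dCAMP libraries, and the log2 fold change was -0.15 (SE 0.11, edgeR adjusted p = 0.357).

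In the 60S subunit the lowest estimate of any member was that of RPL36, on chromosome 20 from 54334256 to 54335169, a short message of 412 bases. Its levels were 299, 275 and 209 CPM in gas and 171, 180 and 197 CPM in dCAMP. The groups did not overlap, but gas 3 was nearer to the dCAMP libraries than to gas 2. Means of 261 ± 46.9 CPM (SD, n = 3) in gas and 182 ± 13.3 CPM (SD, n = 3) in dCAMP gave a log2 fold change of -0.52 (SE 0.15, edgeR adjusted p = 0.221). Without gas 1 it was -0.43 and without gas 3 it was -0.70.

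RPL35, at the exit of the peptide tunnel, was even across the dCAMP libraries. It had 820, 700 and 613 CPM in gas and 523, 527 and 521 CPM in dCAMP, a log2 fold change of -0.44 (SE 0.11, edgeR adjusted p = 0.221). RPL13 measured 1299, 1229 and 890 CPM in gas and 855, 829 and 836 CPM in dCAMP, also -0.44 (SE 0.15, edgeR adjusted p = 0.221). In RPL13 the gap between gas 2 and gas 3 was larger than that between gas 3 and the dCAMP libraries. RPL37, a zinc-binding protein, was measured at a spliced gene (102155072) with 387, 332 and 239 CPM in gas and 241, 221 and 241 CPM in dCAMP. Its groups overlapped through gas 3, at a log2 fold change of -0.44 (SE 0.18, edgeR adjusted p = 0.238). RPL8, near the peptidyl transferase centre, was the highest 60S member per length (1728 FPKM) and measured 2510, 2272 and 1784 CPM in gas and 1637, 1648 and 1602 CPM in dCAMP. All dCAMP libraries of RPL8 were lower, at -0.43 (SE 0.13, edgeR adjusted p = 0.221).

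The stalk of the 60S subunit, which draws the elongation factors to the ribosome, is built from RPLP0 as its base and from RPLP1 and RPLP2. RPLP2 had 816, 806 and 616 CPM in gas and 578, 578 and 573 CPM in dCAMP, a log2 fold change of -0.37 (SE 0.12, edgeR adjusted p = 0.221). RPLP0 had 1649, 1601 and 1483 CPM in gas and 1465, 1497 and 1349 CPM in dCAMP, with overlap, at -0.13 (SE 0.08, edgeR adjusted p = 0.308). RPLP1 had 418, 430 and 434 CPM in gas and 395, 392 and 409 CPM in dCAMP. The groups of RPLP1 did not overlap, but its log2 fold change was only -0.10 (SE 0.07, edgeR adjusted p = 0.345), and its gas libraries were close together, with gas 1 the lowest.

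RPL5 and RPL11 bind the 5S ribosomal RNA and, when ribosome assembly is disturbed, bind and hold back the ubiquitin ligase MDM2. RPL11 had 856, 792 and 712 CPM in gas and 684, 698 and 680 CPM in dCAMP, with no overlap, at -0.20 (SE 0.09, edgeR adjusted p = 0.253). RPL5 had 770, 995 and 1079 CPM in gas and 996, 992 and 980 CPM in dCAMP. For RPL5 the dCAMP libraries were nearly equal and lay inside the range of the gas libraries, with gas 1 lowest and gas 3 highest, and the log2 fold change was 0.06 (SE 0.13, edgeR adjusted p = 0.757). Its estimate was -0.09 without gas 1. MDM2 stood at 45.5, 127 and 150 CPM in gas and 188, 176 and 183 CPM in dCAMP (0.76, SE 0.41, edgeR adjusted p = 0.289).

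The 5 highest estimates belonged to RPL22L1, RPL3L, RPS3A, RPL22 and RPL21, and apart from RPL3L they had their lowest level of all in gas 1. RPS3A, a 40S protein that contacts initiation factor eIF3, measured 502, 970 and 1016 CPM in gas and 928, 1001 and 899 CPM in dCAMP. Gas 1 stood apart, while gas 2 and gas 3 lay among or above the dCAMP libraries, and the log2 fold change of 0.18 (SE 0.26, edgeR adjusted p = 0.636) was -0.09 without gas 1. RPL22, an RNA-binding 60S protein, measured 199, 335 and 352 CPM in gas and 323, 335 and 336 CPM in dCAMP. Its estimate of 0.17 (SE 0.21, edgeR adjusted p = 0.601) likewise turned to -0.07 without gas 1. RPL21 measured 345, 600 and 596 CPM in gas and 558, 581 and 548 CPM in dCAMP, at 0.13 (SE 0.21, edgeR adjusted p = 0.683), and -0.11 without gas 1.

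**Figure D3:**
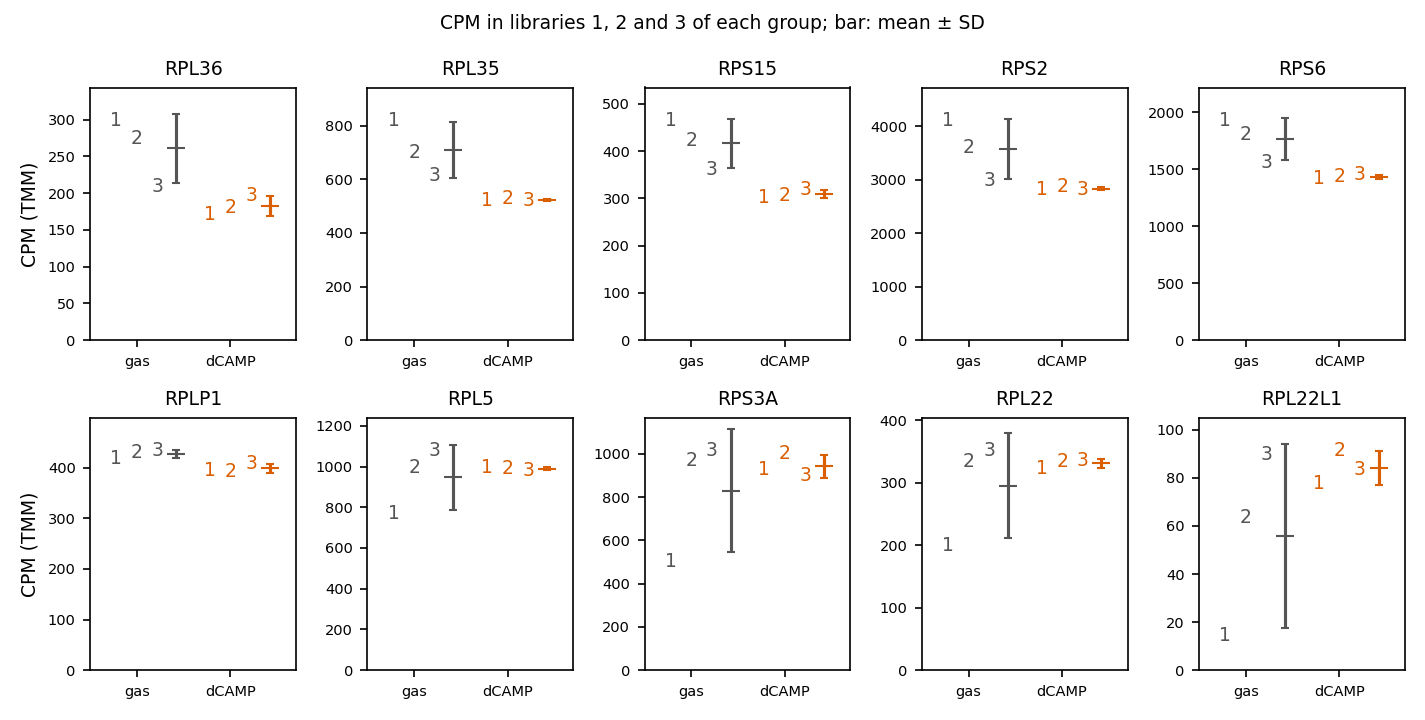
CPM (linear axis from 0) of 10 members, with each library drawn as its number, gas in grey and dCAMP in orange, and the mean ± SD beside each group. In the first 5 panels gas 1 is the highest library and gas 3 the gas library nearest to dCAMP; in RPLP1, RPL5, RPS3A, RPL22 and RPL22L1 gas 1 is the lowest gas library.

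Paralogs replace or accompany their parent protein in some tissues. RPL22L1, the paralog of RPL22 on chromosome 34 from 35298980 to 35302728, was the most variable member, at 14.4, 63.6 and 89.9 CPM in gas and 77.5, 91.4 and 83.5 CPM in dCAMP. Gas 1 stood far below the rest and gas 3 lay among the dCAMP libraries, and the log2 fold change of 0.59 (SE 0.58, edgeR adjusted p = 0.50) was 0.12 without gas 1 and was 1.07 without gas 3. RPS27L, the paralog of RPS27, had 131, 119 and 111 CPM in gas and 108, 108 and 107 CPM in dCAMP, at -0.16 (SE 0.09, edgeR adjusted p = 0.303). RPS27 itself had 583, 459 and 412 CPM in gas and 384, 404 and 443 CPM in dCAMP, overlapping, at -0.24 (SE 0.14, edgeR adjusted p = 0.314).

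RPL7L1 had 114, 103 and 105 CPM in gas and 90.1, 99.9 and 84 CPM in dCAMP, without overlap, at -0.23 (SE 0.10, edgeR adjusted p = 0.246), whereas its parent RPL7 had 1062, 1423 and 1290 CPM in gas and 1181, 1203 and 1195 CPM in dCAMP, at -0.08 (SE 0.11, edgeR adjusted p = 0.658). RPL26L1, whose locus overlaps that of MIXL1, was low (8.35 FPKM) and overlapped between the groups, at -0.23 (SE 0.21, edgeR adjusted p = 0.483), beside -0.32 (SE 0.12, edgeR adjusted p = 0.228) for RPL26. RPL3L, the form of striated muscle, had 5 to 12 counts in a library, a mean of 0.0758 FPKM, beside 1108 FPKM for RPL3, and its estimate of 0.35 (SE 0.37, edgeR adjusted p = 0.535) rests on those few counts. RPL3 was at -0.36 (SE 0.11, edgeR adjusted p = 0.221). RPL10L, an intronless form known from testis, had 1 count in gas 3 and 0 in the other libraries, within the 3 counts that a count of 0 allows, and was not tested, while its parent RPL10 measured 1652, 1444 and 1228 CPM in gas and 1184, 1137 and 1117 CPM in dCAMP (-0.33, SE 0.12, edgeR adjusted p = 0.224). Of the 5 tested paralogs, 0 had an unadjusted p under 0.05 in edgeR, beside 13.9% of all genes lower and 6.81% higher. Their median was -0.16, and 5 genes are too few to set that count against these shares. The difference between paralogs and the other members was not tested.

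The order of the gas libraries was shared by most members. In 55 of the 84 tested members (65.5%) gas 1 was the highest and gas 3 the lowest gas library, an order that 36.3% of all genes tested showed. The opposite order, gas 3 above gas 2 above gas 1, was found in 6 members (7.14%) and in 36.5% of all genes. Gas 2 was the highest gas library in 11 members with gas 3 lowest (13.1%, beside 7.49% of all genes) and in 11 members with gas 1 lowest (13.1%, beside 6.97%). RPL7L1 alone ran from gas 1 to gas 3 to gas 2 (1.19%, beside 7.05%). The 6 members in the opposite order were RPLP1, RPL15, RPL5, RPL22, RPS3A and RPL22L1.

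Relative to the mean of the dCAMP libraries, the median of the members was 0.40 in gas 1, 0.32 in gas 2 and 0.11 in gas 3 on the log2 scale, beside -0.02, -0.02 and -0.01 over all genes tested. Gas 3 was thus nearer to dCAMP, but on the same side: it was above the dCAMP mean in 82 of the 84 members and below it in 2, whereas it was below in 51.1% of all genes. Gas 2 was below in 3 members, beside 51.9% of all genes, and gas 1 in 14, beside 51.0%. The spread of these ratios over the 79 tested members other than paralogs was 0.36 in gas 1, 0.13 in gas 2 and 0.05 in gas 3 (SD), and 0.03 to 0.05 in the dCAMP libraries.

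The 14 members that gas 1 held below the dCAMP mean were RPL22L1, RPS3A, RPL39, RPL22, RPL21, RPL5, RPS24, RPL9, RPL38, RPL15, RPL7, RPL26L1, RPS4X and RPL6, from -2.54 for RPL22L1 to -0.04 for RPL6. They comprised 11 60S and 3 40S members. In gas 3 none of these 14 was below the dCAMP mean, and in gas 2 only RPL22L1 and RPL15 were. Their median length was 866 bases, beside 619 in the other 70, and their median level 519 FPKM, beside 1029. Because they were set apart by a gas library, their fold changes are a description only: the median was 0.04, beside -0.30 for the other 70, and without gas 1, -0.12 beside -0.25.

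**Figure D4:**
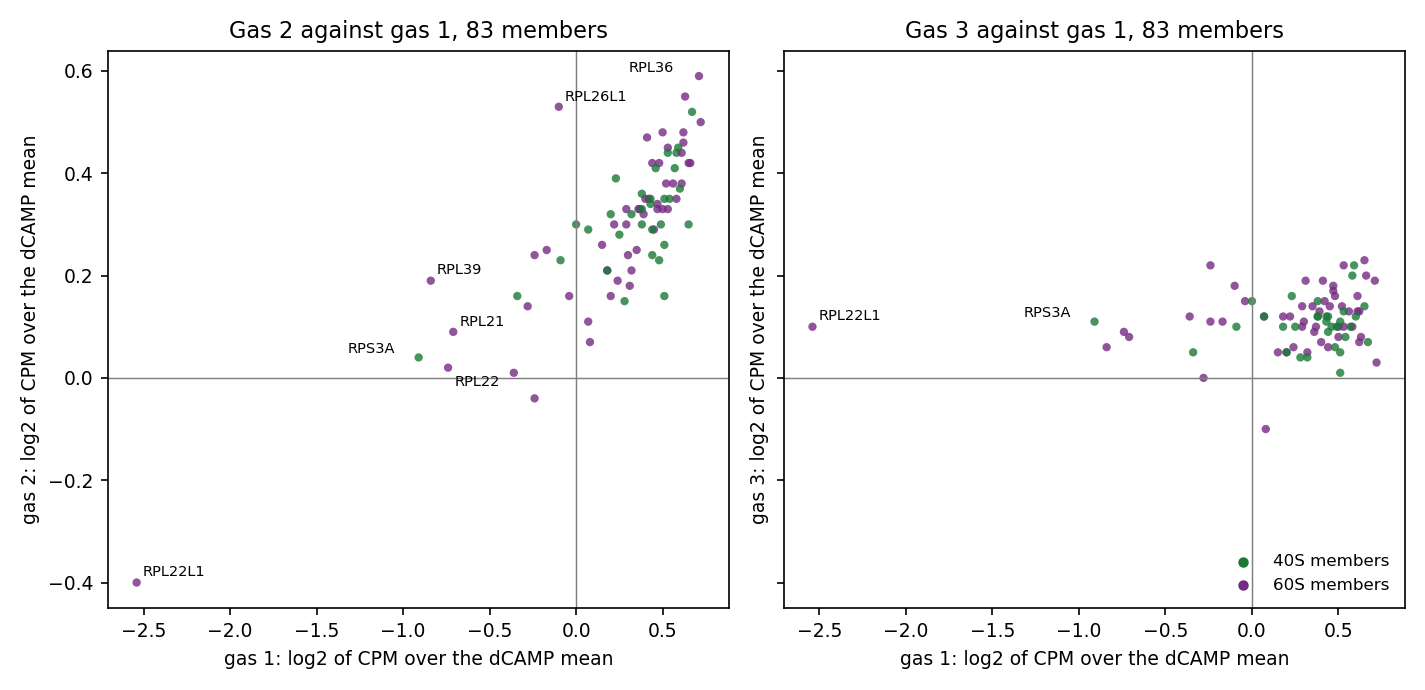
log2 of CPM over the mean of the dCAMP libraries in gas 2 (left) and gas 3 (right) against gas 1 for 83 members (RPL3L, with few counts, left out); colours mark the subunits. Gas 2 varies with gas 1 over the members, while gas 3 stays between 0 and 0.23 for all but RPL31 (609530), at -0.10, and RPL22L1 is far to the left of the others.

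Over the 79 members other than paralogs, the ratios in gas 1 and gas 2 had a Pearson correlation of 0.78, gas 1 and gas 3 of 0.21, and gas 2 and gas 3 of 0.38. These ratios share the dCAMP mean as their base, and members are not replicates. In gas 1 the ratio had a correlation of -0.36 with the log2 of length and of 0.36 with the log2 of mean FPKM.

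Length moved with the difference between the groups in other genes too. Genes outside the list had a median ratio in gas 1 of 0.17 below 500 bases, 0.16 from 500 to 750 bases and -0.32 above 4000 bases, and median log2 fold changes of -0.03, -0.07 and 0.18. Members below 1000 bases lay lower: -0.32 for the 16 below 500 bases, -0.27 for the 35 from 500 to 750 bases and -0.32 for the 18 from 750 to 1000 bases, where other genes were at -0.12. The 11 members from 1000 to 2000 bases were at -0.16, beside -0.07 for other genes, and the 3 from 2000 to 4000 bases at 0.05, beside 0.03. After each library's trend on length was removed, the median of the members was -0.22 and that of all genes -0.04, and 42 members had an unadjusted p under 0.05, all lower, beside 15.3% of all genes.

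Abundant genes outside the list also tended to be lower. Among genes above 1000 FPKM the median of the 40 members was -0.28, with 30 at an unadjusted p under 0.05 and lower, and that of the 37 other genes -0.11, with 37.8%. From 300 to 1000 FPKM the 36 members were at -0.30, with 23 of them past that threshold, and the 115 other genes at -0.17, with 34.8%. From 100 to 300 FPKM the order was the opposite, with the 3 members at 0.17, 0 of them past that threshold, and the 492 other genes at -0.18, with 34.1%. What length and level contribute to the difference in the members was not tested beyond these values.

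Single libraries decided which members passed a threshold. Without gas 3, 61 members had an edgeR adjusted p under 0.05, all lower in dCAMP, and the median was -0.40. That fit put 18.1% of all genes tested lower and 15.0% higher at the same threshold. Without gas 1, 82 of 84 estimates were negative with a median of -0.24, 54 members had an unadjusted p under 0.05 (background 11.8%), and 0 passed the adjusted threshold. Without gas 2 the unadjusted count was 12 (background 5.82%), and without dCAMP library 1, 2 or 3 it was 18, 23 or 8 (background 5.75%, 6.57% and 4.7%). limma's voom with sample quality weights gave 75 members an adjusted p under 0.05, all lower, beside 28.2% of all genes lower and 32.6% higher. That fit gave gas 1 and gas 3 weights of 0.1152 and 0.1917 and gas 2 one of 6.735, so gas 2 carried most of the weight in the control group.

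Gene families with many near-identical copies can share reads, and how reads with several matches were counted is not given in the sources used here. A further 105 genes are described as cytosolic ribosomal proteins but fall outside the rule, 73 of them protein-coding and 32 pseudogenes, and 65 have no introns. They held 5.03% to 5.36% as many counts as the members in each library. Of these, 56 were tested, with a median log2 fold change of 0.06, and 3 were lower and 2 higher at an unadjusted p under 0.05, beside 13.9% and 6.81% of all genes. In 6 of the 56 every dCAMP library lay below every gas library, beside 20.9% of all genes.

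The counts of copies given here are not scaled to library size, so the log2 ratio of CPM to the dCAMP mean is added. A pseudogene of RPS2 (LOC608162) had 24307, 24911 and 20398 counts in gas and 16366, 14607 and 16080 in dCAMP. Its ratios were 0.59, 0.44 and 0.14 in gas 1, 2 and 3, with gas 3 the lowest gas library as in RPS2. The log2 fold change was -0.40 (SE 0.12, edgeR adjusted p = 0.221). LOC476206, which codes for protein S12 and has no parent among the members, was at -0.20 (SE 0.09, edgeR adjusted p = 0.243). Other copies had their lowest value in gas 1, as their parents did. LOC100682542, described as protein L39, had 164, 1286 and 1806 counts in gas and 1543, 1402 and 1434 in dCAMP. Its ratios were -3.2, -0.42 and 0.06 in gas 1, 2 and 3. An RPS3A pseudogene (LOC106558828) had 378, 1079 and 1283 counts in gas and 1123, 1022 and 1048 in dCAMP, with ratios of -1.54, -0.21 and 0.03. These copies were singled out after their values were seen. Among members, the second genes of RPL31, RPL34 and RPL37 have no introns: RPL31 (609530), which lies within COL25A1, was at 18.4 FPKM and -0.02 (SE 0.12, edgeR adjusted p = 0.934), and the others, RPL34 (478509) and RPL37 (100856657), were at -0.16 and -0.36.

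Of the members, 28 have more than 1 annotated transcript, and each transcript has a share of its gene's counts. Over the 62 transcripts with a mean share of at least 1%, 10 transcripts in 5 members (16.1%) had shares that did not overlap between the groups, beside 10.4% of the 27686 such transcripts of all genes tested. Where a gene has 2 transcripts their shares mirror each other, and counted by gene, 5 of 28 members (17.9%) had such a transcript, beside 23.2% of 8104 genes. The 5 members were RPL27A, RPL32, RPL5, RPL7L1 and RPS10, and they were named after their values were seen. In RPL5 the transcript XM_022420463 made up 71.4%, 70.7% and 72.7% in gas 1, 2 and 3 and 73.5%, 74.6% and 74.1% in dCAMP 1, 2 and 3. In RPS10 the transcript XM_005627054 made up 16.3%, 15.2% and 15.3% in gas and 14.3%, 13.2% and 13.1% in dCAMP. These shifts are estimates of the transcript summary and were not tested.

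RPS24, whose last exons are alternatively spliced, had 1 library that differed from the other 5: the transcript NM_001252320 made up 19.5% of its counts in gas 2, beside 0.492% in gas 1, 0.958% in gas 3 and 0.575%, 1.72% and 1.26% in the dCAMP libraries. In RPL21 the transcript XM_022409578 made up 20.4% in gas 1, beside 7.96% and 10.3% in gas 2 and gas 3 and 10.7%, 7.23% and 6.16% in dCAMP.

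The rest of the translation machinery was read from 3 lists of genes. Of 22 tested translation factors and related genes with TOP messages, 8 (36.4%, beside 13.9% of all genes) were lower at an unadjusted p under 0.05 and 0 higher (beside 6.81%), with a median log2 fold change of -0.18 and 8 estimates above 0. RACK1, a scaffold of the 40S subunit, had 2295, 2052 and 1730 CPM in gas and 1631, 1632 and 1550 CPM in dCAMP (-0.34, SE 0.11, edgeR adjusted p = 0.221). VIM, the intermediate filament protein vimentin, had 606, 618 and 561 CPM in gas and 378, 443 and 388 CPM in dCAMP (-0.56, SE 0.09, edgeR adjusted p = 0.221). The study reported the opposite direction for vimentin, by immunoblot and qRT-PCR, in dCAMP-treated cells with wound lesions. Its description of the RNA-Seq cells mentions no wound. NAP1L1, a histone chaperone, and EIF3E, a subunit of eIF3, had the highest estimates, 0.81 (SE 0.68) and 0.59 (SE 0.44), with 39.5 CPM and 124 CPM in gas 1 beside 367 CPM and 473 CPM in gas 3.

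Of 72 tested genes of ribosome biogenesis, 31 (43.1%, beside 13.9% of all genes) were lower at an unadjusted p under 0.05 and 0 higher (beside 6.81%), with a median of -0.16, 27 estimates above 0 and similar medians in the gas libraries (0.14, 0.16 and 0.17 over the dCAMP mean). NLE1, a 60S maturation factor, had 36.0, 31.4 and 24.8 CPM in gas and 21.0, 20.9 and 19.5 CPM in dCAMP (-0.58, SE 0.15, edgeR adjusted p = 0.221). DKC1, the pseudouridine synthase of ribosomal RNA, had 314, 283 and 247 CPM in gas and 189, 209 and 193 CPM in dCAMP (-0.51, SE 0.11, edgeR adjusted p = 0.221). TAF1D, of the RNA polymerase I initiation factor, and NMD3, the 60S export adapter, had estimates of 1.04 (SE 1.02) and 0.77 (SE 0.47), with 2.27 CPM and 20.7 CPM in gas 1.

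Of 20 tested regulators of ribosomal protein messages, 5 (25.0%, beside 13.9% of all genes) were lower and 0 higher (beside 6.81%) at an unadjusted p under 0.05, with a median of -0.10. EIF4EBP1, the translation repressor that mTOR inactivates, had 85.2, 67.5 and 56.0 CPM in gas and 41.7, 38.3 and 45.9 CPM in dCAMP (-0.73, SE 0.17, edgeR adjusted p = 0.221). LARP4, which binds poly(A) tails and stabilizes messages, had 30.8, 49.0 and 80.9 CPM in gas and 79.8, 88.4 and 83.9 CPM in dCAMP (0.65, SE 0.33, edgeR adjusted p = 0.277).

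A pair of complexes of like make-up gave a reference. The median of the 76 mitochondrial ribosomal proteins was -0.21 on the log2 scale, with 30 (39.5%) lower at an unadjusted p under 0.05 and 0 higher. Their lowest estimates were those of MRPL54 (-0.55, SE 0.14) and MRPS12 (-0.52, SE 0.13), whose groups did not overlap, and their highest those of MRPL1 (0.87, SE 0.55) and MRPS36 (0.69, SE 0.40), at 6.29 CPM and 10.0 CPM in gas 1 beside 35.0 CPM and 33.9 CPM in gas 3. The 36 tested proteasome subunits had a median of -0.11, with 11 (30.6%) lower and 0 higher. Among them PSMB6 was at -0.43 (SE 0.13) and PSMB10 at -0.39 (SE 0.15), and PSMD12 at 0.63 (SE 0.37) and PSMC6 at 0.61 (SE 0.50). In both the share lay above the 13.9% of all genes and below the 63.1% of the cytosolic ribosomal proteins. Whether the lists differ from each other was not tested.

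**Figure D5:**
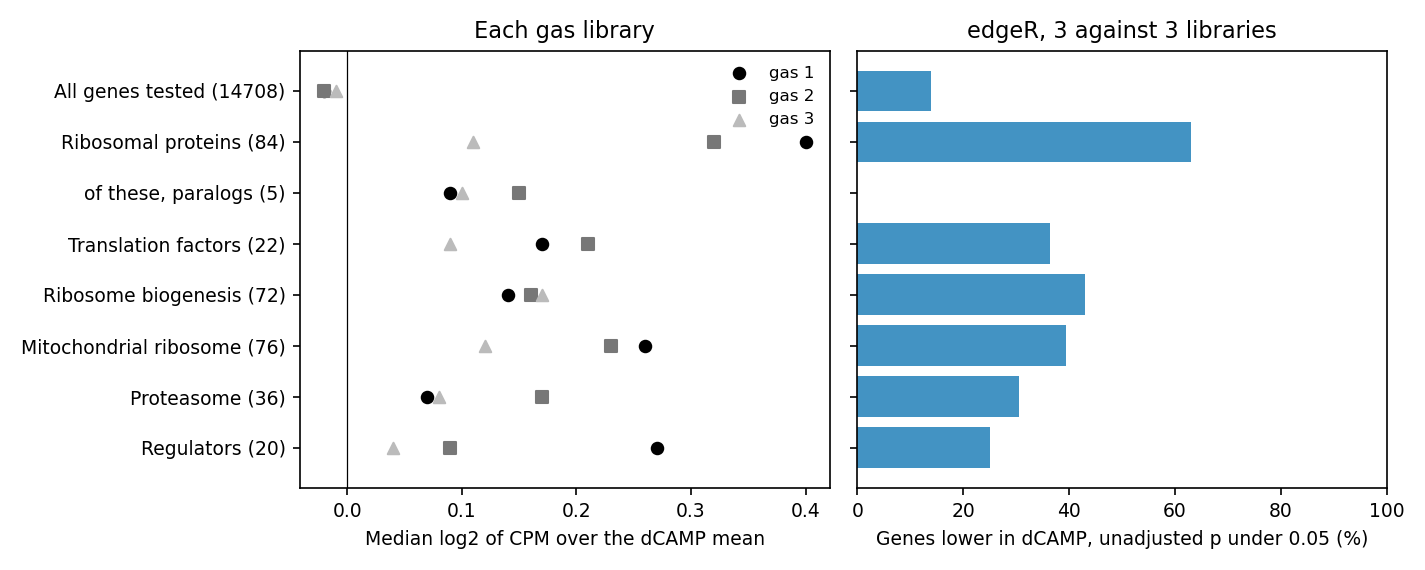
Left: median log2 of CPM over the dCAMP mean in each gas library for all genes tested, the ribosomal proteins and the other lists (number tested in brackets). Right: share of each list (%) lower in dCAMP at an unadjusted p under 0.05 (edgeR), highest for the ribosomal proteins at 63.1%, beside 13.9% of all genes.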

How the data were processed

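The authors trimmed the reads with Trimmomatic 0.38 after quality control with FastQC 0.11.7, removed PCR duplicates, mapped to CanFam3.1 with HISAT2 2.1.0 and summarized known transcripts with StringTie 2.1.3b. The read counts they deposited are not normalized. The deposited FPKM and TPM values were scaled by the authors for length. The annotation release is not given in the sources used here.

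Counts were tested with edgeR 4.0.16 (R 4.3.3): TMM factors, filterByExpr, quasi-likelihood test of dCAMP against gas, prior count 2, Benjamini-Hochberg adjustment over 14708 genes. Steps were tested on simulated data with changes of 3-fold and 1.5-fold. edgeR recovered 97% and 70% of these at a dispersion (spread between libraries) of 0.01, and 92% and 8% at 0.05. Changes under 1.5-fold, such as the median of the members, were not simulated. Alternatives used DESeq2 1.42.0, limma 3.58.1, other factors and filters, a lowess correction for length (span 0.3), a replicate block and leaving out each library. The length of a gene was that implied by count and FPKM.

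The members, lists and tests were chosen with earlier results of these data known. Genes were named by rule: the 5 largest differences each way, the 3 highest and 3 lowest levels, stalk proteins, fusions, paralogs with parents, RPL5, RPL11, RPS6, RPSA, and 2 each way per list. Other names were chosen after values were seen, and some genes of these lists are not reported here. A table of dog genes (UU_Cfam_GSD_1.0), used for names only, held 79 of the 85 members, 78 under the same symbol.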

Additional observations from a re-analysis of the deposited data

How the results depend on the processing

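The count of 0 members with an adjusted p under 0.05 became 75 with voom's sample quality weights (60.8% of all genes in either direction). It became 0 to 61 when 1 library was left out (61 without gas 3, with 33.1% of all genes in either direction). The 53 members with an unadjusted p under 0.05 became 33 with limma on log2(FPKM + 1) (11.8% of all genes), 20 with the length correction and replicate block together (9.95%), and 8 to 66 when 1 library was left out. The median of -0.28 ranged from -0.40 to -0.24 over the fits without 1 library. With upper-quartile factors, which moved the median of all genes from 0.03 to -0.06, the list medians became -0.27 for translation factors, -0.25 for ribosome biogenesis, -0.20 for regulators, -0.30 for mitochondrial ribosomal proteins and -0.20 for the proteasome (-0.17 with voom's weights). The length correction gave -0.11 for translation factors, alone and with the block, and -0.28 for regulators (-0.27 with the block). Without 1 library the list medians ranged from -0.26 to -0.17 for translation factors, -0.22 to -0.16 for biogenesis, -0.23 (without gas 3) to -0.04 (without gas 1) for regulators, -0.28 to -0.20 for mitochondrial ribosomal proteins and -0.17 to -0.11 for the proteasome. Of 586 values of the 31 named members under alternatives, 12 in 5 members changed sign: RPL21 (-0.09), RPL22 (-0.01), RPL5 (-0.01) and RPS3A (-0.04) with voom's weights, RPL5 (-0.02) with upper-quartile factors, and RPL31 (609530) with the length correction (0.06, and 0.05 with the block). Without 1 library they ranged from -0.11 to 0.24, -0.07 to 0.27, -0.09 to 0.12, -0.09 to 0.31 and -0.12 to 0.02, in that order. The causes were not tested.

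The replicate number as a block left 44 members with an unadjusted p under 0.05 (9.31% of all genes), 0 adjusted. The deviations of gas and dCAMP libraries of the same number correlated at 0.13, 0.024 and 0.048. Gas 1 and gas 2 correlated best with the dCAMP library of their own number, and gas 3 with dCAMP 2 (0.087). Values this small cannot tell whether libraries of the same number were paired. The 3 libraries of each group limit the precision, and depth limits RPL3L and RPL10L.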
